A study of Mus musculus with 9 samples.

Results

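The CD300 genes encode a family of leukocyte surface receptors, and 7 of them (Cd300a, Cd300lf, Cd300lb, Cd300ld, Cd300c2, Cd300e and Cd300lg) were followed here among the 55322 genes for which FPKM (reads divided by exon length and by the reads counted on genes) were deposited. The 7 members were chosen by gene symbol, with their FPKM in all 3 groups of cells already in view, and Cd300e was also 1 of the myeloid genes that the study picked for display from these libraries. Their levels, differences and calls are therefore given as descriptions that support nothing further, and p-values are given for other genes. The series holds 3 libraries of CD11b+ B cells and 3 of their CD11b- counterparts, both sorted from the BM of WT C57BL/6 mice 48 h after i.p. LPS (5 mg/kg), and 3 of CD11b+F4/80+ peritoneal macrophages (PMs) from naive WT mice. No group holds B cells from untreated mice, so PMs differ from the B cells in cell type, organ and treatment at once, and these cannot be told apart. The study shows FPKM of these groups with SD, which its methods keep for biological replicates, but the sources used here do not say which mice or pools of mice gave each library.

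CD300 receptors span the membrane once and carry a single V-type immunoglobulin domain that, in several members, binds lipids such as phosphatidylserine, phosphatidylethanolamine and ceramide on dying cells. Members with a long cytoplasmic tail hold inhibitory tyrosine motifs (ITIMs) that recruit the phosphatases SHP-1 and SHP-2. Members with a short tail instead pair with adaptors that carry activating motifs, namely DAP12 (encoded by Tyrobp), DAP10 (Hcst) and the Fc receptor gamma chain (Fcer1g). The family is best known from macrophages, monocytes, neutrophils, mast cells and dendritic cells, where it sets thresholds for activation and for the uptake of dying cells.

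The depth was 18014658 to 35251215 reads on genes per library. Itgam, which encodes CD11b, had a mean FPKM of 288 ± 60.6 (SD, n = 3) in PMs, against 0.507 ± 0.323 in CD11b- and 1.58 ± 0.311 in CD11b+ B cells, and the difference between the B cell groups missed the threshold (limma, adjusted p = 0.50). The summed FPKM of 10 B cell markers lay between 11870 and 14788 in the 6 B cell libraries and between 130 and 242 in PMs. For sorting B cell lineages the study first removed BM cells bearing Gr-1 or TER119, marks of neutrophils and erythroid cells, or T and NK cell antigens. Marker transcripts of several other cell types were still higher with the CD11b+ label. The summed FPKM of 11 neutrophil markers was 215 to 1542 in CD11b+ libraries and 1.77 to 3.0 in CD11b- libraries, that of 11 monocyte markers was 72.6 to 116 and 27.2 to 35.8, and that of 9 macrophage markers was 55.7 to 59.4 and 10.7 to 17.7. That of 5 basophil and mast cell markers was 1.57 to 2.79 and 0.0206 to 0.107, and that of 4 erythroid markers 27.6 to 38.9 and 1.2 to 21.2. Every marker in these lists had reads in CD11b+ B cells. Of the monocyte markers, Ly6c2 and Ms4a6c also had means of 15.7 and 11.0 FPKM in CD11b- B cells. Ccr2, F13a1, Vcan, Ace and Nr4a1 overlapped between the B cell groups. The sums of 7 dendritic cell markers (1.98 to 2.75 and 0.825 to 2.54) and of 6 T and NK cell markers (0.160 to 1.34 and 0 to 1.76) overlapped. That of 7 endothelial markers was lower in CD11b+ libraries (33.6 to 39.8 and 44.0 to 52.2). For every member described below, the part of other cell types' transcripts in its level was not tested. In pooled RNA a smaller number of expressing cells and less RNA per cell cannot be told apart.

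The receptors with ITIMs behaved differently from each other. Cd300a, an inhibitory receptor for phosphatidylserine and phosphatidylethanolamine, was listed at 31.6, 36.7 and 40.5 FPKM in PMs. Among B cells its FPKM was 0.987, 0.357 and 1.61 in the CD11b- libraries and 2.02, 1.09 and 0.407 in the CD11b+ libraries. The B cell groups overlapped over most of their range, and every B cell library was far below every PM library. The mean in CD11b+ B cells was 3.23% of that in PMs, and the mean in CD11b- B cells was 2.71%. On the log2(FPKM + 1) scale CD11b+ and CD11b- B cells differed by 0.11 ± 0.36 (SE) for Cd300a. This difference fell to -0.14 without CD11b- replicate 2 and to -0.16 without CD11b+ replicate 1.

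Cd300lf, which holds ITIMs, binds ceramide and phosphatidylserine and is known as the entry receptor of murine norovirus, was the member with the highest level in CD11b+ B cells. Its FPKM there was 3.49, 3.83 and 3.34, a spread of 0.248 (SD) around a mean of 3.55. In CD11b- B cells it was 0.157, 0.0501 and 0.158 FPKM, from 27, 9 and 26 reads. In PMs it was 1.6, 0.785 and 0.414 FPKM. The CD11b+ libraries lay above every library of the other groups, and the PM libraries lay above the CD11b- ones. The CD11b+ mean was 29.2 times the CD11b- mean and 3.82 times the PM mean. Among the members, Cd300lf and Cd300e had a mean that was greater in CD11b+ B cells than in PMs. Cd300lf (ENSMUSG00000047798, minus strand, chr11:115116214-115133992 in GRCm38) lies inside Rab37, a small GTPase gene on the plus strand. The authors' gene models of both share no exon base. Rab37 had a mean of 0.00694 ± 0.0120 FPKM in PMs, 0.557 ± 0.116 in CD11b+ and 0.738 ± 0.0212 in CD11b- B cells. Whether reads of either gene were counted on the other was not tested. The sources used here do not give whether strand was used in counting.

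The 4 short-tailed receptors all had a greater mean in the CD11b+ than in the CD11b- group, and 3 of them were far below PMs. Cd300lb, which pairs with DAP12 and binds LPS together with TLR4, had 57.0, 46.0 and 46.0 FPKM in PMs. The CD11b+ libraries had 0.397, 0.878 and 0.0292 FPKM and the CD11b- libraries 0.0308, 0.0196 and 0.0535. CD11b+ replicate 3 (3 reads) lay within the range of the CD11b- libraries, and the other two lay above it. The mean of Cd300lb in CD11b+ B cells was 0.875% of that in PMs.

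Cd300ld, also called MAIR-IV, signals through the Fc receptor gamma chain and was the most abundant member in PMs, at 63.8, 83.8 and 85.1 FPKM. Its FPKM was 1.80, 1.29 and 0.193 in the CD11b+ libraries and 0.0453, 0.0867 and 0.106 in the CD11b- libraries. The groups did not overlap, but CD11b+ replicate 3 (18 reads) was much nearer to the CD11b- libraries than the other two were. The mean in CD11b+ B cells was 13.8-fold that in CD11b- B cells and 1.41% of that in PMs.

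Cd300c2, the short-tailed activating receptor MAIR-II, had 6.18, 14.3 and 10.5 FPKM in PMs and 2.27, 1.11 and 1.56 in CD11b+ B cells. No read was counted on it in any CD11b- library. Over the 3 CD11b- libraries a count of 0 allows up to 3 reads, so its mean was at least 70.2-fold higher in CD11b+ B cells. The bound lay between 45.8 and 81.6 when 1 B cell library was left out, the lower values arising where fewer CD11b- reads set the limit. At 15.9% of the PM mean, Cd300c2 was the member whose level in CD11b+ B cells came nearest to PMs among the 5 that were lower than in PMs.

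Cd300e, a short-tailed receptor of monocytes that pairs with DAP12, had an order of groups unlike that of Cd300lb, Cd300ld and Cd300c2. It had 0, 1 and 4 reads in the PM libraries (0, 0.0164 and 0.0949 FPKM) and no read in CD11b- B cells. The CD11b+ libraries had 20, 67 and 225 reads, or 0.326, 1.23 and 3.06 FPKM. Every CD11b+ library was above every library of the other groups, and the CD11b+ libraries spread widely, with an SD of 1.39 around a mean of 1.54. The mean in CD11b+ B cells was at least 107-fold higher than in CD11b- B cells by the limit of 3 reads over the group. Without CD11b+ replicate 3, which held most of the reads, the bound was 54.2-fold, and with a CD11b- library left out it was 70.0 to 73.0-fold.

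Cd300lg, known as nepmucin from the endothelium of lymph node venules, carries a mucin-like domain and lies 12.8 Mb from the other members on chromosome 11. It was listed at 25.9, 24.7 and 25.6 FPKM in PMs (SD 0.612). The CD11b- libraries had 0.0219, 0.0314 and 0.0342 FPKM and the CD11b+ libraries 0.174, 0.0279 and 0.0415, from 2 to 14 reads per library. The B cell groups overlapped. Of 7 endothelial markers, Cdh5, Emcn and Plvap had no read in PMs, and all 7 summed to 0.204 to 0.962 FPKM there. Which cells gave the Cd300lg reads in the PM libraries was not tested.

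**Figure D1:**
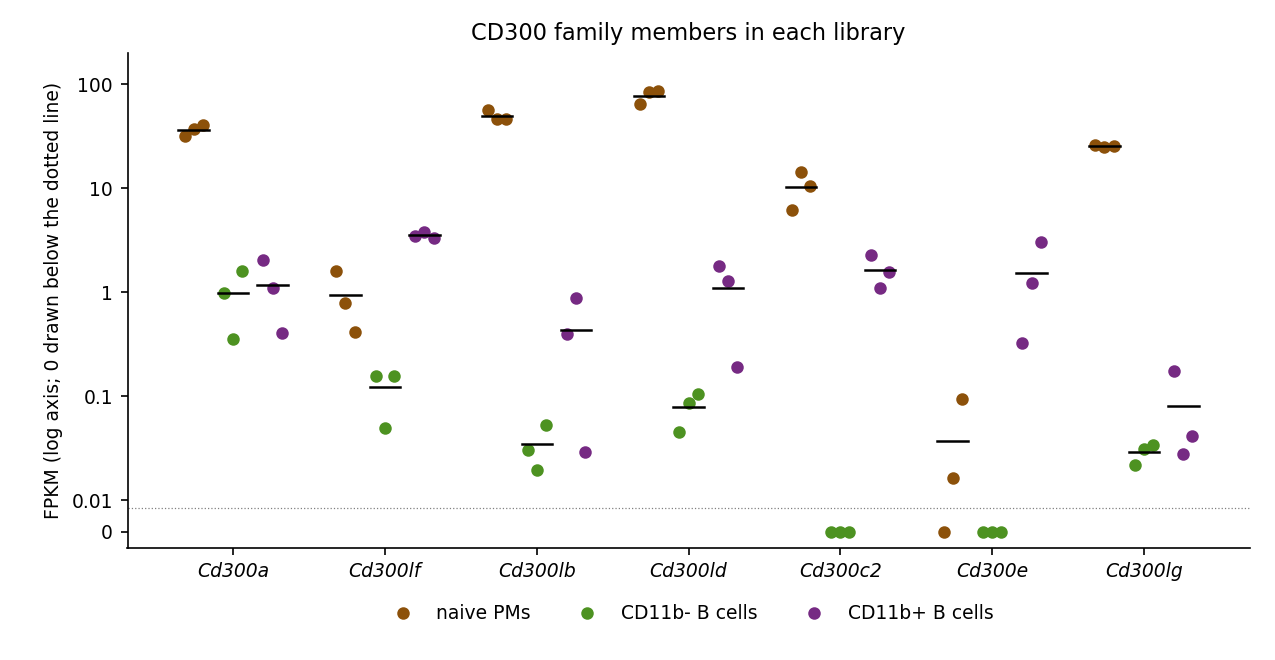
FPKM of the 7 CD300 members in each of the 9 libraries, on a log axis, with values of 0 drawn below the dotted line. Each point is 1 library and each bar the mean of the 3 libraries of a group, and the plot shows 5 members highest in PMs, with Cd300lf and Cd300e highest in CD11b+ B cells.

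The order of the levels differed between the groups. FPKM is per annotated exon length, which ran from 1275 bases for Cd300c2 to 5149 for Cd300lf. Whether reads covered these lengths evenly was not tested, so orders and shares among members are approximate. In PMs the means fell from Cd300ld (77.6) through Cd300lb (49.7), Cd300a (36.3), Cd300lg (25.4) and Cd300c2 (10.4) to Cd300lf (0.931) and Cd300e (0.0371), and no neighbours in that order overlapped. In CD11b+ B cells Cd300lf (3.55) stood apart from the next member, while Cd300c2 (1.65), Cd300e (1.54), Cd300a (1.17), Cd300ld (1.09), Cd300lb (0.435) and Cd300lg (0.0812) each overlapped their neighbour. In CD11b- B cells Cd300a (0.983) stood apart, Cd300lf (0.122), Cd300ld (0.0794), Cd300lb (0.0346) and Cd300lg (0.0292) each overlapped their neighbour, and Cd300c2 and Cd300e had no reads.

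The summed FPKM of the 7 members was 200 ± 12.3 in PMs, 9.52 ± 0.927 in CD11b+ and 1.25 ± 0.707 in CD11b- B cells (SD, n = 3 each). The receptors with ITIMs, Cd300a and Cd300lf, made up 17.9 to 19.7% of that sum in PMs, 43.5 to 52.6% in CD11b+ libraries and 74.7 to 92.1% in CD11b- libraries, ranges that did not overlap. In CD11b- B cells Cd300a alone gave 75.7% ± 8.89 of the sum. In CD11b+ B cells Cd300lf gave 37.5% ± 3.77 and Cd300a 11.8% ± 7.28. The share of the 4 short-tailed members was 68.7% ± 0.991 in PMs, 49.8% ± 5.48 in CD11b+ and 11.3% ± 7.22 in CD11b- B cells. Within that share the CD11b+ libraries differed from each other. Cd300e gave 3.11, 13 and 35.4% of the sum in replicates 1, 2 and 3, and Cd300ld gave 17.2, 13.6 and 2.24%.

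**Figure D2:**
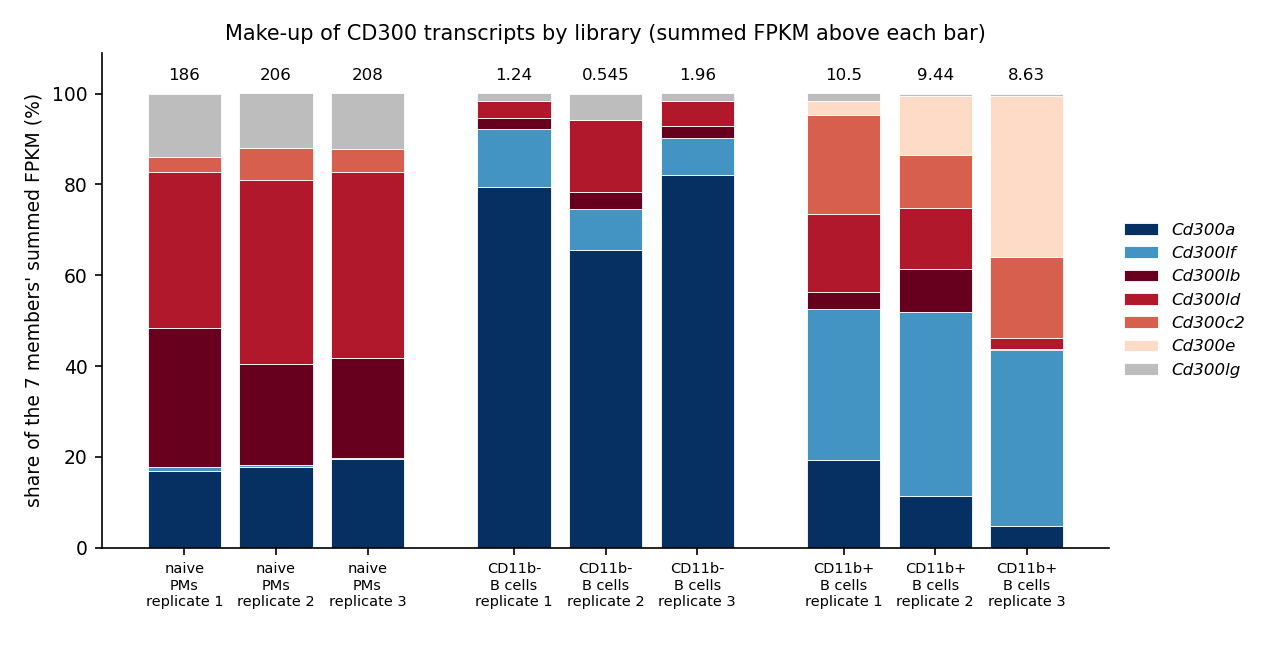
Share of each member in the summed FPKM of the 7 members, as 1 stacked bar per library, with the sum itself printed above the bar. Blue shades are the receptors with ITIMs, red shades the short-tailed receptors and grey Cd300lg, and Cd300a fills most of each CD11b- bar while Cd300lf is the largest part of each CD11b+ bar.

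Between CD11b+ and CD11b- B cells all 7 members passed the filter on low values (a mean of at least 0.05 FPKM over the 6 libraries). All 7 differences were above 0, as were those of 11992 of the 21778 genes tested. Cd300lb, Cd300c2, Cd300e and Cd300lg had CD11b- means under 0.05 FPKM. They passed only through their CD11b+ values, so the filter fixed their direction and bears on the median. The median of the 7 was 0.87 on the log2(FPKM + 1) scale, beside 0.03 over all genes tested. The difference was 2.02 ± 0.22 (SE) for Cd300lf, 1.38 ± 0.22 for Cd300c2, 1.19 ± 0.37 for Cd300e and 0.87 ± 0.31 for Cd300ld. It was 0.43 ± 0.21 for Cd300lb, 0.11 ± 0.36 for Cd300a and 0.07 ± 0.10 for Cd300lg. In 4 members, Cd300lf, Cd300ld, Cd300c2 and Cd300e, the 3 CD11b+ libraries were above the 3 CD11b- libraries, which held for 8.63% of all genes tested. With limma 1 member, Cd300lf, passed the adjusted threshold of 0.05 upwards, where 0.0689% of all genes did, and no member passed downwards, where 0% of all genes did. Without a downward call in limma, 661 genes were lower at an unadjusted p under 0.05, edgeR with its filter called 0 lower, edgeR without one 155 and DESeq2 53. Upwards, edgeR with its filter called 1 member and 0.269% of all genes, edgeR without one 4 members (Cd300lf, Cd300ld, Cd300c2 and Cd300e) and 1.11%, and DESeq2 4 members and 0.952%. With a pseudocount of 0.1 limma called 2 members and 0.156% of all genes higher, and with no filter on low values 0 members and 0.00535%. Where no filter is named below, edgeR calls are those with the filter. The call of Cd300lf was lost when any CD11b- library or CD11b+ replicate 1 or 2 was left out, with no filter on low values and with a replicate block, while its difference stayed at 1.98 to 2.05. As the members were chosen with these values in view, these counts describe them and support nothing further.

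Between CD11b+ B cells and PMs, 5 of the 7 members were called lower and Cd300lf higher, where 8.78% of 22102 genes were called lower and 21.5% higher. The differences were -5.31 ± 0.33 for Cd300ld, -5.18 ± 0.28 for Cd300lb, -4.61 ± 0.23 for Cd300lg, -4.16 ± 0.31 for Cd300a and -2.06 ± 0.35 for Cd300c2. They were 1.28 ± 0.33 for Cd300lf and 1.14 ± 0.39 for Cd300e. Between CD11b- B cells and PMs, 6 members passed the filter and 5 were called lower, where 11.0% of 20985 genes were called lower and 25.8% higher. Here the differences were -6.17 ± 0.20 for Cd300ld, -5.61 ± 0.20 for Cd300lb, -4.68 ± 0.21 for Cd300lg, -4.28 ± 0.28 for Cd300a, -3.44 ± 0.34 for Cd300c2 and -0.74 ± 0.25 for Cd300lf. The comparisons share libraries and are not independent. Comparisons with PMs also depend on how libraries are scaled. Median-ratio scaling moved genes with a mean of at least 10 FPKM by a median of -0.47 in CD11b+ B cells against PMs and -0.50 in CD11b- B cells against PMs, on the log2 scale. It turned the split of calls from 4760 higher and 1940 lower to 2922 and 2566 in the first, and from 5404 and 2306 to 3411 and 3088 in the second. No member changed direction under it, but the call of Cd300lf as higher than in PMs was lost (1.28 became 0.97) and Cd300lf passed the threshold as lower in CD11b- B cells (-0.74 became -0.87).

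**Figure D3:**
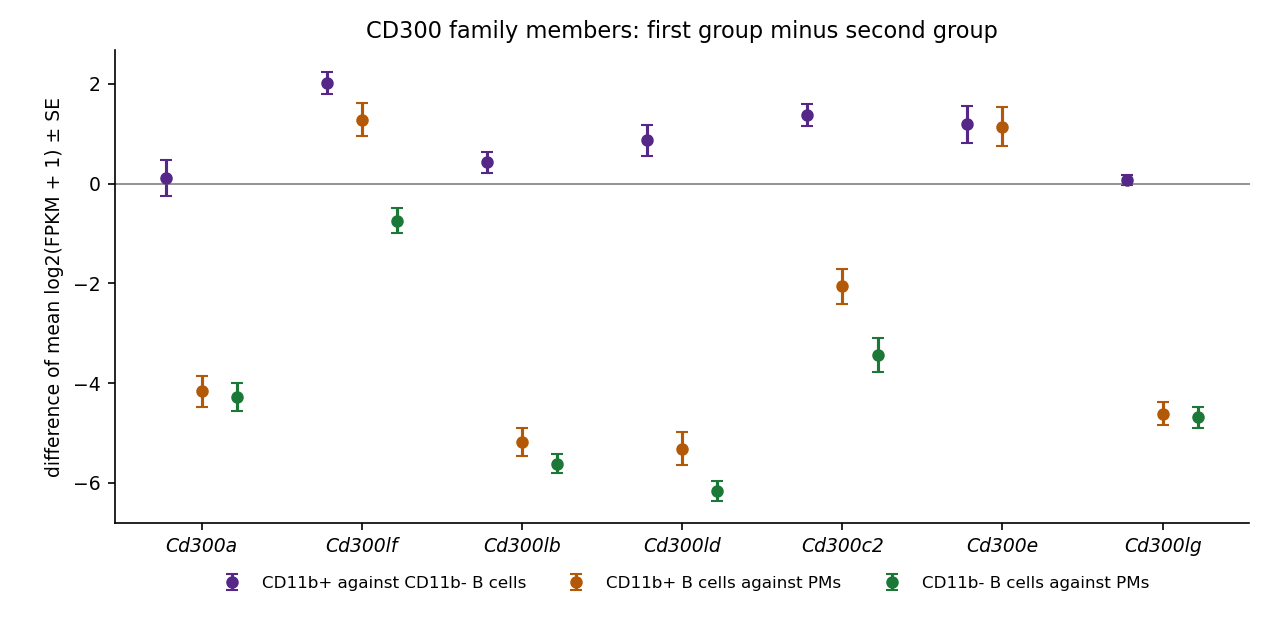
Difference of mean log2(FPKM + 1) between groups for each member, first group minus second group, with bars of 1 SE from limma. Cd300e is not drawn for CD11b- B cells against PMs, where its mean was under the filter, and Cd300lf and Cd300e are the members above 0 in CD11b+ B cells against PMs.

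Beyond the members, 5 more CD300 genes are in the table. Cd300c, on which no read was counted in PMs, had 19, 3 and 2 reads in the CD11b- libraries and 11, 0 and 26 in the CD11b+ libraries, which overlap (0.13 ± 0.23, limma, adjusted p = 0.858). Cd300ld2 had 23 reads in PM replicate 2 and 2 in CD11b- replicate 1, and Cd300ld3 had 4 and 3 reads in PM replicates 2 and 3. Cd300ld4 and Cd300ld5 had no read in any library. Cd300ld3, Cd300ld4 and Cd300ld5 are near-identical, and their counts are uncertain. Of the 100-base stretches in their GENCODE M21 transcripts, 80.9% of those of Cd300ld3, 86.7% of those of Cd300ld4 and 100% of those of Cd300ld5 also occur in another CD300 gene, and reads from such stretches could be dropped or split by the counting. The share was 16.2% for Cd300ld2 and 0% for Cd300c. For the 7 members that share was 0 to 3.23%, and Cd300ld, the member nearest to them by name, shared stretches with Cd300lf only.

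In GRCm38 the cluster of 11 CD300 genes other than Cd300lg spans 244 kb of chromosome 11 (chr11:114890041-115133992). Cd300a (ENSMUSG00000034652) lies at its start on the plus strand (chr11:114890041-114904654). The other members in the cluster lie on the minus strand, in the order Cd300lb (ENSMUSG00000063193, chr11:114922781-114934386), Cd300ld (ENSMUSG00000034641, chr11:114982274-114989922), Cd300c2 (ENSMUSG00000044811, chr11:114996721-115001880), Cd300e (ENSMUSG00000048498, chr11:115051917-115062177) and Cd300lf. Cd300lg (ENSMUSG00000017309) lies on the plus strand at chr11:102041509-102055620. The upstream sequences below are shown for the pair that led in CD11b+ B cells over PMs (Cd300lf and Cd300e) and for the member that led in PMs (Cd300ld). They are also shown for a family gene of similar name on which no read was counted (Cd300ld4), a count that is uncertain. They come from RefSeq windows on GRCm38.p6 that end at the base before the annotated start, from which any part inside the gene's own GENCODE M21 model was removed, and such windows were found for 10 of the 12 CD300 genes. All 4 are on the minus strand, at chr11:115133993-115134242 for Cd300lf, chr11:115062178-115062289 for Cd300e, chr11:114989923-114990136 for Cd300ld and chr11:115027013-115027183 for Cd300ld4. The window of Cd300lf lies inside Rab37. They are written 5′ to 3′ in the direction of transcription. Capitals mark GAGGAA, the purine-rich core bound by the myeloid and B cell factor PU.1, or TTCCTC, the same core on the other strand.
Cd300lf: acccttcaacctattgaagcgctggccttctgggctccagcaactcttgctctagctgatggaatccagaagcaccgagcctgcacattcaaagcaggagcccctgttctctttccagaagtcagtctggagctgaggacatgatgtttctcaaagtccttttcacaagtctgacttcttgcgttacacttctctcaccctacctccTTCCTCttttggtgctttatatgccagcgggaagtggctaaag
Cd300e: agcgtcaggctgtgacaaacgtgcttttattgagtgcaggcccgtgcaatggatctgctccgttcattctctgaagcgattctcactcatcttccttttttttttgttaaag
Cd300ld: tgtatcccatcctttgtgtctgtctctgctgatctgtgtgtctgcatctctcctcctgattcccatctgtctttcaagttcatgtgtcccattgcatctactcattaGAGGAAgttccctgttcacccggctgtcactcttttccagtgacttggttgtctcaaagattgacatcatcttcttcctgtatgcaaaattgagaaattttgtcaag
Cd300ld4: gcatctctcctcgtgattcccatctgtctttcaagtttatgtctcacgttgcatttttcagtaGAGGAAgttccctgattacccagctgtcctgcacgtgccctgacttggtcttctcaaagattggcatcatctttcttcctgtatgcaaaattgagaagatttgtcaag
In the whole 250-base windows the core was present on either strand in 7 of the 10 CD300 genes (Cd300a, Cd300lf, Cd300ld, Cd300c2, Cd300ld3, Cd300ld4 and Cd300ld5) and absent from those of Cd300lb, Cd300e and Cd300c. It was present in 23.4% of 32536 such windows of all genes, from which duplicate windows were dropped. The 10 CD300 windows include identical and near-identical ones, so these shares were not counted alike and are not compared. The core began 43 bases before the start in Cd300lf, 143 in Cd300ld and 187 in Cd300ld4. Aligned over 250 bases, the windows of Cd300ld and Cd300ld4 were 72.0% identical. Those of Cd300ld3 and Cd300ld4 were 94.8% identical, and those of Cd300ld4 and Cd300ld5 were identical. The match is present before Cd300ld, at 77.6 FPKM in PMs, and before Cd300ld3, Cd300ld4 and Cd300ld5, with few or no reads. The counts of the latter are uncertain, as most of their 100-base stretches occur in other CD300 genes, so nothing is read from this contrast. A match describes letters only and says nothing of binding.

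Of 18 other genes between the CD300 genes or within 200 kb of them, 8 passed the filter between CD11b+ and CD11b- B cells and none was called by limma, edgeR or DESeq2 or had an unadjusted p under 0.05. Their median difference was -0.11. Against PMs, both B cell groups had 2 calls upwards and 1 downwards. Tmem104, a membrane protein gene, was lower (-1.65 ± 0.22, adjusted p = 0.000961 in CD11b+ B cells). Fdxr, a mitochondrial ferredoxin reductase, was higher (1.67 ± 0.28, adjusted p = 0.00294), as was Rab37 (0.63 ± 0.15, adjusted p = 0.0162). Nat9, an acetyltransferase gene, was called lower with median-ratio scaling (-1.05, adjusted p = 0.00892) but not on FPKM as deposited (-0.60 ± 0.25, adjusted p = 0.108). Slc9a3r1, the scaffold protein gene NHERF1 on the far side of Rab37 and the most highly expressed of the 18, had means of 40.5 ± 6.04 FPKM in PMs, 40.6 ± 6.11 in CD11b+ and 45.4 ± 8.56 in CD11b- B cells.

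The adaptors through which short-tailed members signal were also most abundant in PMs, and 1 of them differed between the B cell groups. Fcer1g, the Fc receptor gamma chain and partner of Cd300ld, had a mean of 43.3 ± 9.51 FPKM in CD11b+ and 1.71 ± 0.385 in CD11b- B cells. The difference was 4.02 ± 0.21 (limma, adjusted p = 0.00115), with each CD11b+ library above each CD11b- library, and it passed the threshold with each library left out (3.85 to 4.15, adjusted p from 0.00271 to 0.0245). In PMs Fcer1g was at 1499 ± 369 FPKM, so CD11b+ B cells held 2.89% of the PM level. Tyrobp, which encodes DAP12, had means of 3202 ± 706 FPKM in PMs, 81.5 ± 11.0 in CD11b+ and 50.3 ± 10.5 in CD11b- B cells. The B cell libraries did not overlap, but the difference of 0.70 ± 0.19 missed the threshold (adjusted p = 0.408). Hcst, which encodes DAP10, had means of 102 ± 26.0, 26.3 ± 13.8 and 13.7 ± 4.88 FPKM in the same order, and the B cell groups overlapped (adjusted p = 0.675). All 3 adaptors were lower than in PMs in both B cell groups, by 5.26 for Tyrobp, 5.08 for Fcer1g and 2.01 for Hcst on the log2 scale in CD11b+ B cells (adjusted p = 4.23e-06, 5.33e-06 and 0.00459).

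**Figure D4:**
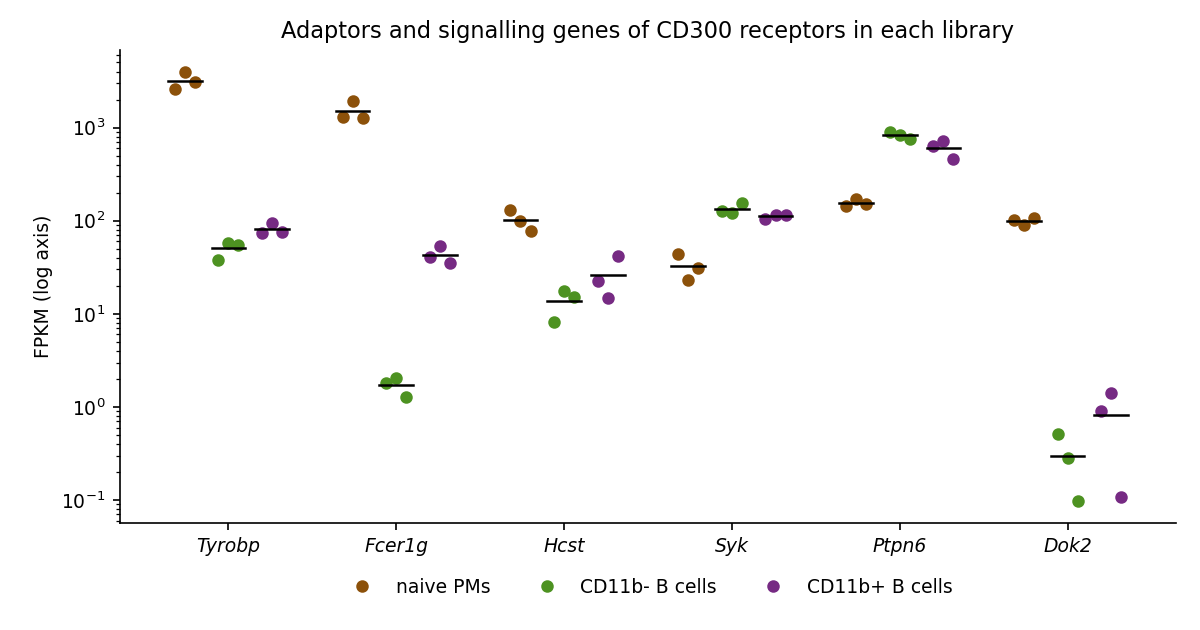
FPKM of the adaptors Tyrobp, Fcer1g and Hcst, the kinase Syk, the phosphatase Ptpn6 and the docking protein Dok2 in each library, on a log axis, with the group mean as a bar. Fcer1g separates CD11b+ from CD11b- B cells (means 43.3 and 1.71 FPKM), and Syk and Ptpn6 are higher in both B cell groups than in PMs.

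Of 14 genes of activating signalling, which are the adaptors with the kinases and effectors behind them, Fcer1g alone was called between the B cell groups by limma, and their median difference was -0.17. Against PMs, CD11b+ B cells had 6 calls upwards and 5 downwards, where 21.5% of all genes were called higher and 8.78% lower. CD11b- B cells had 7 and 5, where 25.8% and 11.0% of all genes were called. Syk, the kinase that docks on activated adaptors, exceeded PMs in CD11b+ B cells (1.79 ± 0.24, adjusted p = 0.00107). Card9, an adaptor behind Syk in myeloid cells, was lower (-4.16 ± 0.41, adjusted p = 0.000196). The lower genes were the 3 adaptors, Card9 and the Src family kinase Fgr (-1.43 ± 0.24, adjusted p = 0.00299), while the higher genes included Syk, Plcg2, Vav1, Pik3cd and Grb2. With median-ratio scaling the calls of Pik3cd and Grb2 were lost in CD11b+ B cells, and those of Lyn and Grb2 in CD11b- B cells.

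Of 8 genes of inhibitory signalling, on which Cd300a and Cd300lf depend, limma, edgeR and DESeq2 called 0 between the B cell groups, and 1 was lower at an unadjusted p under 0.05. Against PMs, both B cell groups had 5 calls upwards and 1 downwards. Ptpn6, the phosphatase SHP-1, was at 602 ± 130 FPKM in CD11b+ B cells and 155 ± 14.0 in PMs (1.93 ± 0.23, adjusted p = 0.000613). Ptprc (CD45) was higher by 1.95 ± 0.28 and Csk, a kinase that restrains Src family kinases, by 1.76 ± 0.18 (adjusted p = 0.00152 and 0.000218). Dok2, a docking protein of myeloid and T cells, was lower (-5.85 ± 0.30, adjusted p = 5.69e-06). Inpp5d (SHIP1) and Dok3 were higher by 0.88 ± 0.22 and 0.90 ± 0.27 (adjusted p = 0.0183 and 0.0389), and both of these calls were lost with median-ratio scaling. Ptpn11 (SHP-2) had means of 7.19 to 8.61 FPKM in CD11b+ B cells and PMs and was not called by limma (-0.19, adjusted p = 0.559), while edgeR and DESeq2 called it lower (each -0.74, adjusted p = 0.0424 and 0.0259). In CD11b- B cells the call of Dok3 was lost with median-ratio scaling, edgeR and DESeq2 (adjusted p from 0.138 to 0.272). All of these called Ptpn11 lower there (adjusted p from 0.000591 to 0.0222).

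The other receptors and bridging proteins that recognise phosphatidylserine were largely genes of PMs. Of 13 such genes, 11 were tested in CD11b+ B cells against PMs, of which 7 were called lower and 1 higher. Of all genes tested, 8.78% were called lower and 21.5% higher. Timd4, the phosphatidylserine receptor of resident macrophages, was at 375 ± 48.6 FPKM in PMs and 0.679 ± 0.364 in CD11b+ B cells (-7.82 ± 0.22, adjusted p = 5.19e-07). The bridging protein gene Pros1 (-6.08 ± 0.23), the receptor kinase genes Mertk (-4.69 ± 0.25) and Axl (-3.37 ± 0.27) and Stab1 (-4.15 ± 0.29) were also lower, with adjusted p from 1.41e-06 to 6.16e-05. Havcr1 (TIM-1), a phosphatidylserine receptor known from B cells, was above PMs in CD11b+ B cells (2.14 ± 0.106 and 0.0294 ± 0.0325 FPKM, difference 1.61 ± 0.24, adjusted p = 0.00166). Between the B cell groups limma called 0 of 11, with 2 higher and 1 lower at an unadjusted p under 0.05, while edgeR called 1 and DESeq2 2 higher, and edgeR without a filter called Axl higher and Mfge8 lower. In CD11b+ B cells the mean of Cd300lf, 3.55 FPKM, was above that of Timd4, Havcr1 and Axl (1.01 ± 0.372) and below that of the scavenger receptor gene Cd36 (31.8 ± 17.7).

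The receptor complex for LPS, with which Cd300lb associates, was not called between the B cell groups by limma or edgeR, where 1 of its 4 genes was higher at an unadjusted p under 0.05 and with DESeq2. Cd14, the co-receptor for LPS, was at 1.69 ± 0.0823 FPKM in CD11b+ and 0.361 ± 0.171 in CD11b- B cells (0.99 ± 0.21, adjusted p = 0.263) and at 424 ± 136 in PMs. Against PMs, Cd14 (-7.25 ± 0.27), Lbp (-4.48 ± 0.27) and Ly96, which encodes MD-2 (-2.60 ± 0.21), were lower in CD11b+ B cells, with adjusted p of 1.31e-06, 1.37e-05 and 6.36e-05. Tlr4 itself was at 5.47 ± 1.66 FPKM in PMs, 2.68 ± 1.17 in CD11b+ and 3.95 ± 0.221 in CD11b- B cells, and limma on the FPKM as deposited did not call it between CD11b+ B cells and PMs (-0.84 ± 0.35, adjusted p = 0.108). It was called lower with median-ratio scaling (-1.22, adjusted p = 0.0372), by edgeR (-1.55, adjusted p = 0.0234) and by DESeq2 (-1.55, adjusted p = 0.00437).

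The members did not move together over the 3 CD11b+ libraries. Replicate 3 was lowest in Cd300a (0.407 FPKM), Cd300lb (0.0292), Cd300ld (0.193) and the summed neutrophil markers (215), and highest in Cd300e (3.06). Replicate 2 was highest in Cd300lb (0.878) and in the neutrophil markers (1542). Replicate 1 was highest in Cd300a, Cd300ld and Cd300c2 and lowest in Cd300e (0.326). Cd300lf (3.34 to 3.83) and the macrophage markers (55.7 to 59.4) were nearly level. Macrophage markers in CD11b+ B cells were at 0.201 to 4.87% of their PM level, with a median of 0.569%. Only Cd163 (4.87%) was above Cd68 (3.04%) among them. Beside these, Cd300a was at 3.23%, Cd300ld at 1.41%, Cd300lb at 0.875%, Cd300lg at 0.320% and Cd300c2 at 15.9%. In CD11b- B cells the macrophage markers were at 0.0662 to 1.12% and Cd300a at 2.71%.

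**Figure D5:**
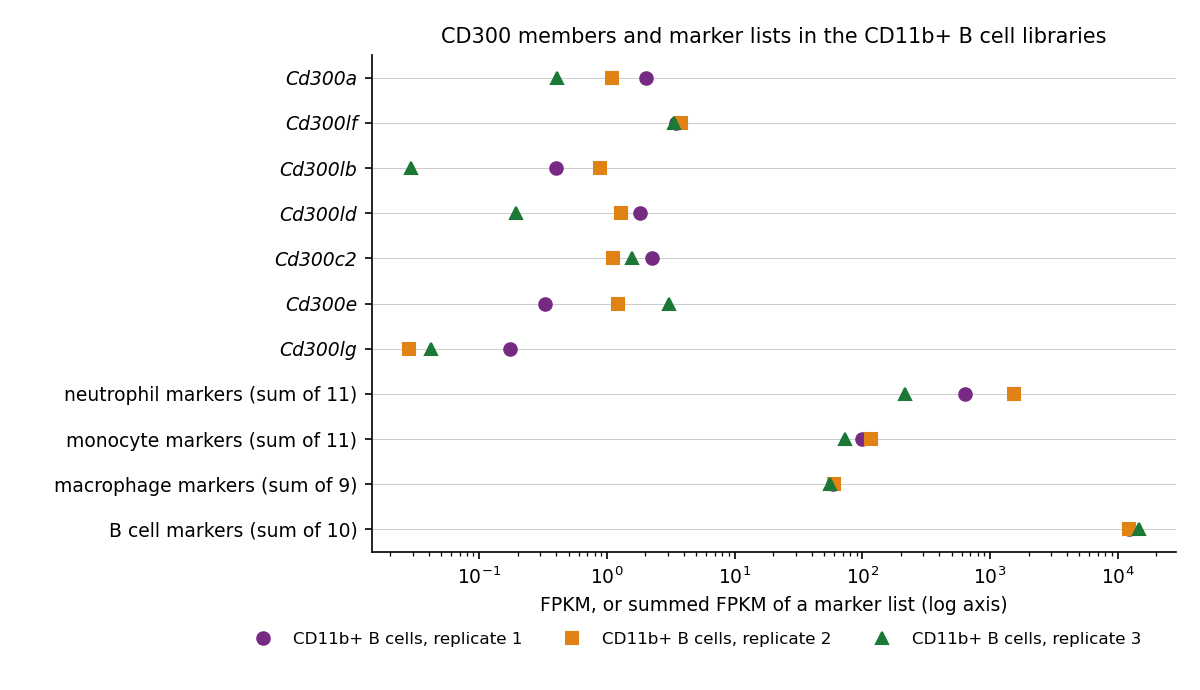
FPKM of the 7 members, and summed FPKM of neutrophil, monocyte, macrophage and B cell marker lists, in the 3 libraries of CD11b+ B cells, on a log axis. Each symbol is 1 library, and replicate 3 is low in Cd300a, Cd300lb, Cd300ld and the neutrophil markers but high in Cd300e.

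The genes whose log2(FPKM + 1) over the 9 libraries was most like that of a member, among 14217 genes with a mean of at least 1 FPKM in some group, differed in number. These correlations are descriptions over 9 points that share 3 groups and their depth. Cd300lg had 1004 genes at a Pearson r of at least 0.95, Cd300lb 979, Cd300ld 874 and Cd300a 848, while Cd300c2 had 88, Cd300e 5 and Cd300lf 1. The single gene for Cd300lf was S100a8, a neutrophil and monocyte protein (r = 0.958), with means of 6.02 FPKM in PMs, 232 in CD11b+ and 0.852 in CD11b- B cells, followed by U6 (0.906) and Zc3h12c (0.902). The nearest genes were C4b, Wnt2 and Plxdc2 for Cd300lg (each 0.9998), Apobr, Ccl9 and Nupr1 for Cd300lb (0.9988 to 0.9993), and Rxra, Slc11a1 and Cd9 for Cd300ld (0.9981 to 0.9984). They were Tnfrsf1b, Tmem141 and Nhsl2 for Cd300a (0.9944 to 0.9963), Anxa2, Lman1 and Evi2a for Cd300c2 (0.9867 to 0.9929) and H3c3, Gm23442 and Gm47516 for Cd300e (0.9563 to 0.9574).

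The nearest genes were also taken over the 6 B cell libraries alone, among 14133 genes. At an r of at least 0.95 there were 141 genes for Cd300e, 111 for Cd300ld and 105 for Cd300lf. There were 77 for Cd300lb, 76 for Cd300c2, 74 for Cd300lg and 17 for Cd300a. These correlations describe 6 points and can restate the difference between the groups. Those of Cd300lg rest on 2 to 14 reads per library, too few to order the libraries. For Cd300lf the nearest genes included Lilr4b, an inhibitory receptor gene, and Prss16 (r of 0.9996 and 0.9986). For Cd300c2 they were Mocos, Clec4a2, a C-type lectin receptor gene, and Tnfaip2 (0.9968 to 0.9992), and for Cd300ld they were P2ry6, Cd163 and Rxra (0.9957 to 0.9982). For Cd300lb they were Asprv1, Gm26457 and Sqor (0.9983 to 0.9990). For Cd300e they included Tiam1 and Usp30 (0.9957 and 0.9946). They were for Cd300a Gm11084, Snx32 and Slc18a2 (0.9795 to 0.9881) and for Cd300lg Tm4sf5, Dusp18 and Khdc3 (0.9961 to 0.9971). No gene was among the 3 nearest of more than 1 member over these 6 libraries.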

How the data were processed

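RNA was measured in 9 libraries, 3 per group, assigned from the sample labels. The authors sequenced read pairs from amplified cDNA (SMART-seq HT kit). The submitters' processing notes name Trim Galore 0.4.4, Trimmomatic 0.36, cutadapt 1.16, STAR 2.7.2b, featureCounts 1.6.1 and DESeq2 1.20.0, with the builds GRCm38 and GRCm39. The FPKM the authors deposited are reads divided by exon length and by reads on genes. A second deposited table gives 11063 genes as a normalized signal, each library's counts over its size factor. Its columns of clusters, and any other result of the authors' comparisons, were not used. FPKM times length gave whole reads for 100% of values within 0.05, all equal to those of the second table where both list a gene. Of 13 genes compared (the 12 CD300 genes and Rab37), 0 started in the deposited table where GENCODE M21 on GRCm38 starts them, so positions printed were looked up in GENCODE M21 by gene identifier, while overlaps and neighbours were found within the deposited positions.

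The main test was limma 3.58.1 (R 4.3.3, two-sided, lmFit and trended eBayes) on log2(FPKM + 1) over the 6 libraries of each comparison, among genes with a mean of at least 0.05 FPKM, with Benjamini-Hochberg adjustment over all genes tested and a threshold of 0.05. A difference on this scale understates the change of low genes. The scripts were first tested on simulated data. A group at 0 was set at 3 reads over its libraries, which covers counting error only, since amplified reads are not molecules. The members, and the lists of linked, neighbouring and marker genes, were chosen with earlier results of these data known. Named were the members, the other CD300 genes, Itgam, the locus neighbours, the adaptors, up to 5 called genes per linked list and comparison with the largest difference, and the 3 genes most like each member. Any other gene was named with its values in view, and some genes are not reported here. Alternatives were pseudocounts of 0.1 and 0.01, no filter and a minimum of 1 FPKM, 1 fit of all 9 libraries, a replicate block, median-ratio scaling, edgeR 4.0.16 with and without a filter and DESeq2 1.42.0 on the whole reads, and each library left out. Sequences were compared with Biopython 1.88.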

Additional observations from a re-analysis of the deposited data

How the results depend on the processing

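In CD11b+ against CD11b- B cells the number of CD300 members past the threshold, 1 as reported, was 2 with a pseudocount of 0.1 (0.156% of all genes higher), 0 without a filter on low values (0.00535%), 4 with edgeR without a filter (1.11%) and 4 with DESeq2 (0.952%), and 0 to 1 with a library left out. It was 0 with CD11b- replicate 1, 2 or 3 or CD11b+ replicate 1 or 2 left out and 1 without CD11b+ replicate 3. The number of linked genes past it, 1 as reported, was 2 with edgeR with a filter and 6 with edgeR without a filter (4 higher, 2 lower) or DESeq2 (6 higher). The causes were not tested. The difference of Cd300a between the B cell groups turned to -0.14 without CD11b- replicate 2 and -0.16 without CD11b+ replicate 1, the lowest value of the left-out libraries, whose highest was 0.39.

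Against PMs, the numbers of members and of linked genes past the threshold stayed within 1.5 times their values under all 16 alternatives. By direction, in CD11b+ B cells the members called higher moved from 1 to between 0 and 2, and the linked genes called higher from 16 to as few as 10 (edgeR without a filter). Cd300e, not called as reported (1.14), was called higher than in PMs in 8 of the 15 alternatives that gave it a value. Cd300lf ranged from 0.97 to 2.13 in CD11b+ B cells against PMs over the 16 alternatives and passed the threshold in 9 of them. Cd300a, Cd300lb, Cd300ld, Cd300c2 and Cd300lg were lower than PMs and called in both B cell groups under all 16, on the same values by which the members were chosen, so these counts are descriptions and no support.

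With a replicate block by the numbers in the sample titles, the number of members past the threshold between the B cell groups was 0. The titles do not say that equal numbers share a mouse or day, and the deviations of same-numbered B cell libraries correlated at 0.28, -0.02 and 0.21, so the block was not used otherwise. It changed no other total by over 1.5 times, and between CD11b+ B cells and PMs the upward calls of members went from 1 to 2 with Cd300e. At 2 to 14 reads per library, Cd300lg in the B cells and Cd300lb in CD11b- B cells rest on too few reads to order the libraries.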

Other observations

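Of 10 other receptors with immunoglobulin domains (the TREM family, Fc receptors for IgM and IgA, Pigr and Milr1), limma called 0 of 9 tested between the B cell groups, with 2 higher and 1 lower at an unadjusted p under 0.05, edgeR 0 and DESeq2 2 higher, and edgeR without a filter called Trem3 and Treml4 higher and Fcmr lower. In CD11b+ B cells against PMs, 4 of 10 tested were called higher and 1 lower, where 21.5% and 8.78% of all genes were. Fcmr, the Fc receptor for IgM of B cells, was at 2.80 ± 1.22 FPKM in PMs, 343 ± 67.3 in CD11b+ and 535 ± 38.0 in CD11b- B cells (6.53 ± 0.27 against PMs, adjusted p = 2.00e-06). Treml2, a TREM-like receptor of B cells, was at 0.217 ± 0.0763, 29.6 ± 3.93 and 35.4 ± 1.38 FPKM (4.64 ± 0.23, adjusted p = 5.27e-06). Trem2, which pairs with DAP12, was lower than in PMs (-3.22 ± 0.32, adjusted p = 0.000213), at 9.05 ± 2.73 FPKM there. Fcamr and Pigr were higher by 1.11 ± 0.33 and 0.80 ± 0.22 (adjusted p = 0.0346 and 0.0253), and the call of Fcamr was lost with median-ratio scaling, that of Pigr with edgeR (adjusted p = 0.0861) and both with edgeR without a filter.

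Trem3 and Treml4, named after their values were seen, had group means in the order of those of Cd300lf and Cd300e, although the Trem3 values in CD11b+ B cells (1.74 to 4.92 FPKM) and PMs (0 to 3.07) overlapped. Trem3, another partner of DAP12, was at 1.32 ± 1.58 FPKM in PMs, 3.19 ± 1.61 in CD11b+ and 0.0603 ± 0.104 in CD11b- B cells, and Treml4 was at 0.108 ± 0.186, 0.941 ± 0.549 and 0. In both, each CD11b+ library was above each CD11b- library, and limma called neither (1.92 ± 0.31 and 0.92 ± 0.21, adjusted p = 0.123 and 0.327).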
